A study of Mus musculus with 6 samples.

Results

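ADP-ribose hydrolases are the enzymes that take ADP-ribose off proteins or break the released ADP-ribose down, and 10 mouse genes for them were followed here in 3T3 fibroblasts that overexpressed human PARG. The genes were chosen by name, as Parg, Adprh, Adprhl2, Macrod1, Macrod2, Oard1, Nudt5, Nudt9, Nudt16 and Enpp1, and all 10 had a row among the 41819 genes of the count table. RNA-seq was done on 6 cultures of a 3T3 clone with a lentiviral cassette in which the TetOne doxycycline-inducible promoter drives human PARG (hPARG) together with the fluorescent protein mClover3. The 3 control cultures were not induced, and the 3 hPARG cultures, labelled as PARG overexpression, received 500 ng/ml doxycycline, each for 72 h. The labels give the type of all 6 as malignant. Both groups carry the cassette and were grown in puromycin, and all cultures come from 1 clone, so the p-values below measure the spread between cultures of that clone only. Every hPARG culture received doxycycline and no control culture did, so hPARG and doxycycline cannot be told apart in these RNA data.

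Poly(ADP-ribose) is built by PARP enzymes and removed in steps. PARG cleaves the bonds between the ADP-ribose units of a chain but leaves the last unit on the protein, and other hydrolases remove that unit according to the amino acid that carries it: ARH3 (gene Adprhl2) from serine, ARH1 (Adprh) from arginine, and the macrodomain enzymes MACROD1, MACROD2 and TARG1 (Oard1) from glutamate or aspartate. Free ADP-ribose is then split to AMP and ribose phosphate by nudix hydrolases such as NUDT9, which is known from mitochondria, and NUDT5, while NUDT16 and the ectoenzyme ENPP1 can also cut protein-bound ADP-ribose at its pyrophosphate bond.

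The count totals lay between 21619908 and 25263818 per culture. Of 10 fibroblast markers, 9 had more than 1 RPKM (a read rate per kilobase of exon and per library size) in every culture, and none of 5 epithelial, 4 endothelial and 5 immune markers did. The summed RPKM of the fibroblast markers lay between 3200 and 3570 in the control and between 3400 and 3820 in the hPARG group. The epithelial and endothelial sums were at most 0.247 RPKM in any culture. For the immune markers the sums lay between 0.0413 and 0.087 and between 0.0418 and 0.0654, and Cd3e and Adgre1 had 0 counts in all 6 cultures. The cultures labelled replicate 2 stood apart from the rest in both groups. Their log2 CPM (counts per library size after TMM normalization) minus the mean of replicates 1 and 3 followed the exon length of a gene, and across 11509 genes Spearman's rho was 0.601 (control) and 0.59 (hPARG), so the differences of the members are also given without both replicates 2.

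The mouse Parg row was looked at before the other members, since the labels name PARG as the overexpressed gene. The table holds mouse genes only, so the human cDNA has no row of its own, and the Parg row does not check the induction. Whether reads of the human cDNA were counted as mouse Parg was not tested. Parg (ENSMUSG00000021911) lies on chromosome 14 from 32201949 to 32297550 of GRCm38, on the plus strand, with 5540 bases of exon in its coding transcripts. It had 1246, 1317 and 1032 counts in control replicates 1 to 3 and 1095, 1400 and 1096 counts in hPARG replicates 1 to 3. In CPM the control cultures stood at 48.6, 56.7 and 48.6 and the hPARG cultures at 50.2, 57.7 and 50.3. The groups overlapped, and the highest culture in each was replicate 2. The log2 fold change of hPARG over control was 0.04 (standard error 0.112, adjusted p = 0.999 by edgeR's quasi-likelihood test), with a 95% interval from -0.22 to 0.30. As a fold this interval runs from 0.859 to 1.23. Without both replicates 2 the log2 fold change was 0.05 (interval -0.15 to 0.25).

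Parg starts only 51 bases from Timm23, a gene of the mitochondrial inner membrane import channel that is read in the opposite direction. Of the other members, Oard1 starts 108 bases from Nfya, which encodes a subunit of the CCAAT-binding factor NF-Y, and Nudt5 starts 145 bases from Cdc123, a factor in assembly of the translation initiation complex eIF2. These were the members with a protein-coding gene on the other strand that starts within 1000 bases. Nudt5 and Cdc123 overlap, with 146 bases of exon in common, while the genes of the other pairs do not. The stretches between the starts of the first 2 of these pairs are shown because they are the DNA that the paired genes share. For comparison, the stretch just before the start of Enpp1, a member with almost no reads in these cells and no such neighbour, is shown. All are RefSeq sequence of GRCm38.p6, written 5′ to 3′ on the strand of the member, with CG dinucleotides in capitals.
Parg and Timm23, chr14:32201899-32201948, plus strand: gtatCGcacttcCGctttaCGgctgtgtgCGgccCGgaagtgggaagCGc
Oard1 and Nfya, chr17:48409907-48410013, plus strand: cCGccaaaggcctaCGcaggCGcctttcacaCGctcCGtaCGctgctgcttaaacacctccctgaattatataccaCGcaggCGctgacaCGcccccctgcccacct
Enpp1, chr10:24712160-24712266, minus strand: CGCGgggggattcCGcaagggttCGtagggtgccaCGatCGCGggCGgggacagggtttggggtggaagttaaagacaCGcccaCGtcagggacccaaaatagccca
The 50 bases between Parg and Timm23 hold 6 CG dinucleotides, the 107 bases between Oard1 and Nfya hold 9, and the 107 bases before Enpp1 hold 10. In the RefSeq windows of 300 bases around the start (250 before and 50 after), 31 and 33 CG dinucleotides were counted in those of Parg, 23 and 13 in those of Oard1, 20 in that of Nudt5 and 22 in that of Enpp1. Of all 32851 such windows in the genome, 10.6% hold at least 31 and 23.1% at least as many as Enpp1. All windows of the 9 members that had one lay above the median of all windows, 7, whether or not the member was detected in these cells. Adprh had no window.

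The neighbours of Parg and Oard1 differed from them in which cultures were high, while Cdc123, like Nudt5, was lowest in both replicates 2. Timm23 had its lowest values in the cultures where Parg had its highest, with 307, 265 and 379 CPM in the control and 326, 240 and 326 CPM in the hPARG group. Its coding transcripts hold 1173 bases of exon, against 5540 for Parg. In replicate 2, Parg was above the mean of replicates 1 and 3 by 0.22 (control) and 0.20 (hPARG) on the log2 scale, while Timm23 stood at -0.36 and -0.44. The length decile with the median nearest to Parg (5267 bases) stood at 0.188 and 0.199, and the decile nearest to Timm23 (1110 bases) at -0.389 and -0.410. On the same scale Nfya stood at 0.07 (control) and 0.13 (hPARG), and Oard1 at -0.30 in both. Cdc123, with 2291 bases, stood at -0.15 and -0.27, and the decile nearest to it (2231 bases) at -0.142 and -0.127. None of the 3 neighbours passed the test between groups, with log2 fold changes of -0.09 for Timm23, 0.02 for Nfya and -0.05 for Cdc123 (adjusted p = 0.999 each, edgeR).

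**Figure D1:**
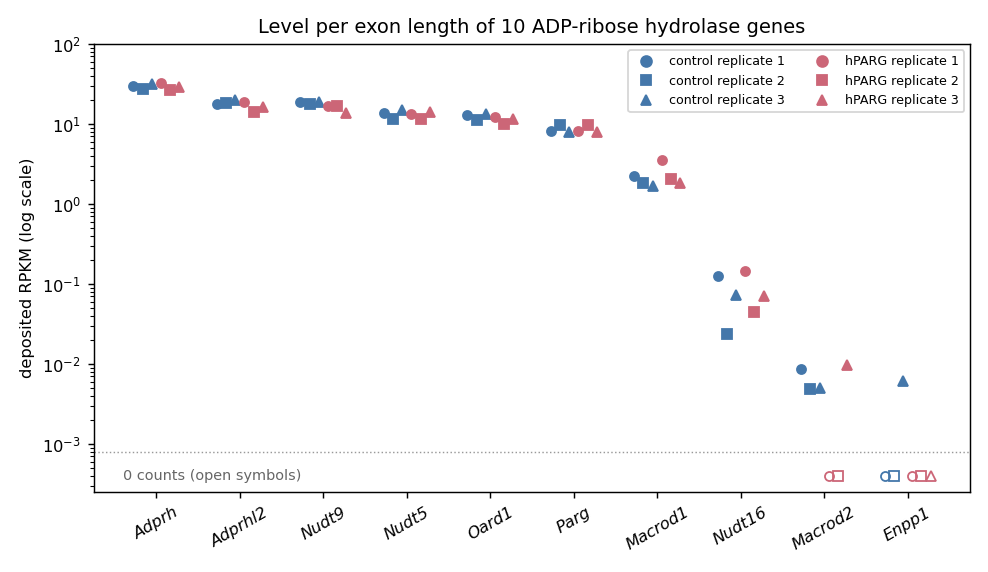
Deposited RPKM (log axis) of the 10 members in each of the 6 cultures, ordered by mean level, with control in blue, hPARG in red and a symbol for each replicate number. Open symbols below the dotted line are cultures with 0 counts. Adprh was highest, with cultures between 26.6 and 32.4, and Nudt16, Macrod2 and Enpp1 stayed at or below 0.145.

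Levels of different genes were compared per length, in the RPKM values of the authors. Adprh had the highest mean over the 6 cultures, 29.4 ± 2.23 RPKM (SD, n = 6). Adprhl2 (17.5 ± 2.04 RPKM) and Nudt9 (17.1 ± 1.90 RPKM) followed, and these neighbours did not differ beyond their spread, since Adprhl2 was above Nudt9 in 4 of 6 cultures. Nudt5 (13.1 ± 1.44 RPKM) and Oard1 (11.9 ± 1.28 RPKM) came next. Their ranges overlapped, although Nudt5 was the higher of the pair in 6 of 6 cultures. Parg itself stood sixth at 8.63 ± 0.873 RPKM and took between 7.27% and 10.7% of the summed RPKM of the 10 members in a culture, against 28.1% to 30.8% for Adprh. Macrod1 had 2.18 ± 0.672 RPKM, and Parg was 3.95-fold above it. Below a further gap of 27.1-fold came Nudt16, Macrod2 and Enpp1. In this order the ranges of Adprh and Adprhl2, of Oard1 and Parg, and of Parg and Macrod1 did not overlap.
The RPKM of a gene rests on the exon length behind it. For 99.9% of 8639 coding genes with at least 200 counts in every culture, the deposited RPKM matched, within 0.1%, a length made of all exons of the coding transcripts. For Nudt5 this length is 4952 bases, while its 4 coding transcripts have from 509 to 4764 bases, with a median of 1166.5. For Parg the length is 5540 bases, and its 7 transcripts of this kind have from 428 to 4413 bases. Which transcripts the cells made cannot be read from counts per gene.

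Adprh and Adprhl2, the hydrolases that act on arginine and serine, had the highest mean RPKM of the set. Adprh (ENSMUSG00000002844, chromosome 16, 38444030 to 38452703, minus strand) had 2427, 1975 and 2210 counts without induction and 2302, 2059 and 2111 with it. In CPM these are 94.7, 85 and 104 against 106, 84.9 and 96.8, so the lowest culture of each group was replicate 2 and the groups overlapped. Its log2 fold change was 0.02 (standard error 0.123, interval -0.27 to 0.30, adjusted p = 0.999, edgeR). Adprhl2 (ENSMUSG00000042558, chromosome 4, 126316047 to 126321703, minus strand) had 806, 737 and 789 control counts and 758, 621 and 664 hPARG counts. Its CPM was 31.5, 31.7 and 37.2 in the control against 34.7, 25.6 and 30.5. Of the hPARG cultures, 2 lay below the lowest control and 1 lay between the controls. The log2 fold change of -0.14 (standard error 0.139, interval -0.47 to 0.18) did not pass the test (adjusted p = 0.999, edgeR), and it was -0.07 without both replicates 2.

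Among the macrodomain hydrolases, Oard1 and Macrod1 had reads enough for a test and Macrod2 did not. Oard1 (ENSMUSG00000040771, chromosome 17, 48410014 to 48417266, plus strand) had 561, 427 and 498 counts without induction and 454, 405 and 444 with it. Its CPM was 21.9, 18.4 and 23.5 against 20.8, 16.7 and 20.4, with the lowest value of each group in replicate 2 and overlapping groups. As a log2 fold change this was -0.14 (standard error 0.138, interval -0.46 to 0.18, adjusted p = 0.999, edgeR).
Macrod1 (ENSMUSG00000036278, chromosome 19, 7056810 to 7198057, plus strand) encodes a protein known from mitochondria. Its counts were 75, 55 and 49 without and 103, 65 and 55 with induction, which is 2.93, 2.37 and 2.31 CPM against 4.72, 2.68 and 2.52 CPM. The culture hPARG replicate 1 stood above the other 5, while the other 2 hPARG cultures lay within the range of the controls. The log2 fold change of 0.38 was the largest in size of the 7 tested members, with a standard error of 0.283 and an interval from -0.28 to 1.03 whose upper end is 2.05-fold. It did not pass the test (adjusted p = 0.999, edgeR). Without hPARG replicate 1, it was 0.04.
Macrod2 (ENSMUSG00000068205, chromosome 2, 140395309 to 142392966, plus strand), a gene that spans a large genomic region, had 2, 1 and 1 counts without induction and 0, 0 and 2 with it. Every culture was at or under the floor of 3 counts, which stands for 0.117 to 0.141 CPM, so no fold change is given.

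The enzymes that break down released ADP-ribose included the member closest to a difference between the groups. Nudt9 (ENSMUSG00000029310, chromosome 5, 104046306 to 104065379, plus strand) had 1139, 929 and 960 counts without induction and 872, 950 and 737 with it. Its CPM was 44.5, 40.0 and 45.2 in control against 40.0, 39.2 and 33.8 in hPARG cultures. Replicate 2 of the control, the lowest of its group, stood at the level of the highest hPARG culture. In RPKM the control cultures stood at 19.1, 17.6 and 18.6 and the hPARG cultures at 16.7, 16.8 and 13.7, without overlap. Whether the groups of Nudt9 overlap thus depends on the scaling. The log2 fold change was -0.20 (standard error 0.110, interval -0.45 to 0.06), and it did not pass the test (unadjusted p = 0.108 and adjusted p = 0.999, edgeR). Without both replicates 2 it was -0.28 (interval -0.50 to -0.05, adjusted p = 0.569, edgeR). The gene model Gm43545 on the other strand shares 39.3% of the exon sequence of Nudt9 and had 0 counts in all 6 cultures.
Nudt5 (ENSMUSG00000025817, chromosome 2, 5845019 to 5871895, plus strand) had 1876, 1383 and 1766 counts without induction and 1562, 1472 and 1710 with it. In CPM the control cultures stood at 73.2, 59.5 and 83.2 and the hPARG cultures at 71.6, 60.7 and 78.4. The groups covered nearly the same range, with the lowest value of each in replicate 2. Between groups the log2 fold change was -0.04 (standard error 0.153, interval -0.39 to 0.32, adjusted p = 0.999, edgeR). Opposite-strand genes share 23.5% of its exon sequence, with 2.95% in Cdc123 and 18.4% in Sec61a2, which had between 856 and 1148 counts. Whether strand was used in counting is not stated, so counts of Nudt5 and of these genes may not be fully separate.
Nudt16 (ENSMUSG00000032565, chromosome 9, 105128903 to 105131824, minus strand) had 6, 1 and 3 counts without induction and 6, 2 and 3 with it, 10 and 11 in all, and 4 of the 6 cultures were at or under the floor. Enpp1 (ENSMUSG00000037370, chromosome 10, 24637914 to 24712159, minus strand), whose enzyme also makes extracellular pyrophosphate, had 1 count in control replicate 3 and 0 in the other 5 cultures. A difference in these genes was not detectable at this depth.

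**Figure D2:**
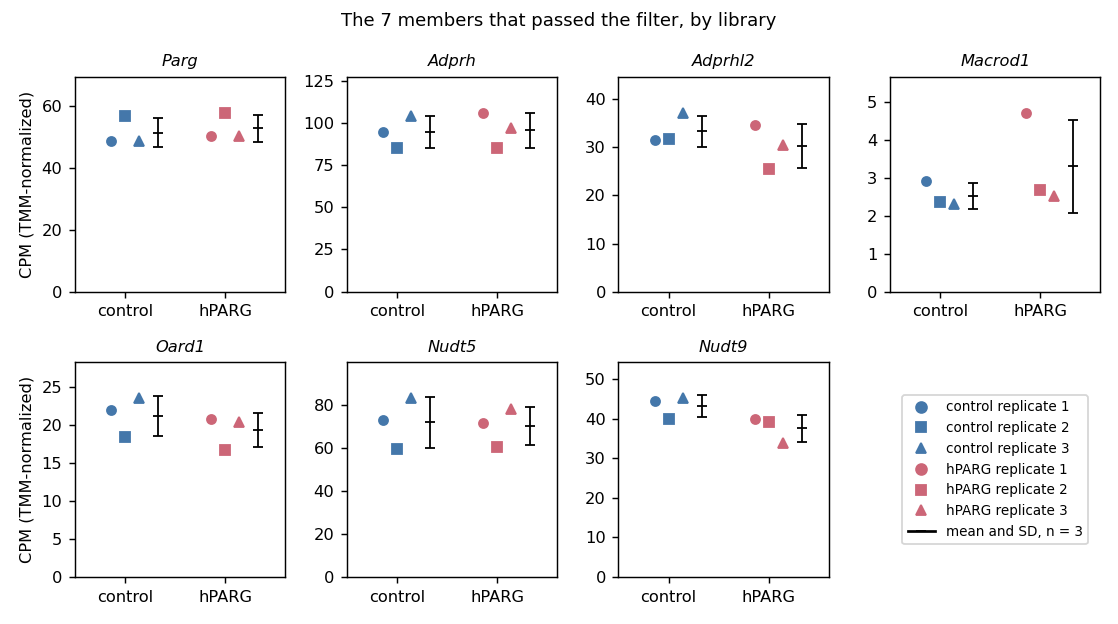
TMM-normalized CPM of the 7 members that passed the filter on low counts, with each culture as a symbol and the mean with SD (n = 3) in black beside it; every axis starts at 0. Control and hPARG cultures overlap in each panel, and replicate 2 (squares) is the highest culture of both groups for Parg and the lowest of both for Adprh, Oard1 and Nudt5.

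Of the 10 members, 7 passed the filter on low counts, and 0 of these 7 passed an adjusted p of 0.05 by edgeR, where 0.0869% of the 11509 tested genes did (10 genes). At an unadjusted p under 0.05 there were also 0 members, where 3.95% of the tested genes were, and DESeq2 called 0 members as well. With the replicate number as a block, 0 members passed the adjusted p, where 2.87% of the tested genes did, and 1, Nudt9, had an unadjusted p under 0.05, where 17.9% did. In TMM-normalized CPM, the 3 hPARG cultures lay wholly above or below the 3 controls for 0 of the 7. Of all tested genes, 9.62% were so separated (3.61% wholly above and 6% wholly below). In RPKM the hPARG cultures lay wholly below the controls for Nudt9, and the share over all tested genes was not computed in RPKM. The log2 fold changes ranged from -0.20 for Nudt9 to 0.38 for Macrod1, with 3 above 0 and 4 below. Their median was -0.04, beside a median of 0.00 over all tested genes. In absolute size, 20.5% of the tested genes had a larger log2 fold change than Nudt9 and 76.6% a larger one than Parg. For Macrod1 this share was 6.19%, and its mean CPM was higher than that of only 12% of the tested genes. The intervals of 6 members excluded a 2-fold difference in either direction, the exception being Macrod1. Without both replicates 2 the log2 fold changes of the members not yet given were 0.03 for Adprh, -0.13 for Oard1, 0.47 for Macrod1 and -0.05 for Nudt5. In bulk RNA, fewer cells that express a gene and less of its RNA per cell cannot be told apart.

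**Figure D3:**
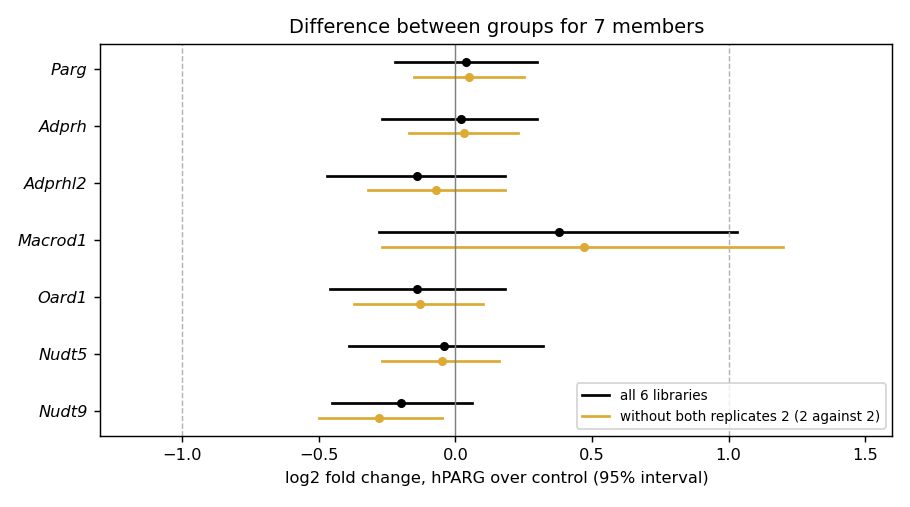
Log2 fold change of hPARG over control with its 95% interval for the 7 tested members, from all 6 cultures (black) and without both replicates 2 (yellow); dashed lines mark a 2-fold difference. With all 6 cultures every interval includes 0, and that of Macrod1, from -0.28 to 1.03, is the widest.

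The deviation of the replicates 2 lay near the length trend of all genes for Parg and Oard1 in both groups and below it for Nudt5 and Adprh. Oard1, with 1558 bases of exon, stood at -0.30 on the log2 scale in both replicates 2, and Parg, with 5540 bases, at 0.22 and 0.20. Nudt5 has 4952 bases by the same measure, yet it stood at -0.39 in control replicate 2 and -0.30 in hPARG replicate 2. The length decile with the nearest median (5267 bases) stood at 0.188 and 0.199, opposite in sign. The coding transcripts of Nudt5 have a median of 1166.5 bases, and the decile nearest to that (1110 bases) stood at -0.389 and -0.410. The deciles were made from the length of all coding exons, so a transcript median is an unlike measure. By that measure Parg (median 2894 bases) would be set against the decile of 2731 bases, at -0.083 and -0.036, and would lie above it in both groups. Which of these lengths applies in these cells was not tested. Adprh, with 2966 bases, also lay below the trend in both groups, at -0.23 and -0.25, where the decile with the nearest median (2731 bases) stood at -0.083 and -0.036. Adprhl2 stood at -0.11 (control) and -0.35 (hPARG) and Macrod1 at -0.13 and -0.36, where the deciles with the nearest medians stood at -0.236 and -0.244 (1744 bases) and at -0.389 and -0.410 (1110 bases). Nudt9 was at -0.17 (control) and 0.09 (hPARG), so that its replicates 2 did not deviate alike. In a fit corrected for exon length and GC content, the log2 fold changes of all 7 members still had adjusted p-values over 0.05 (edgeR). The 3 tested genes whose log2 CPM was most like that of Parg over the 6 cultures were Mrtfa (Pearson's r = 0.997), Wwc1 (r = 0.997) and Zyg11b (r = 0.996). The points of these correlations share the high replicates 2, and 1647 of the tested genes had an r above 0.9 with Parg.

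**Figure D4:**
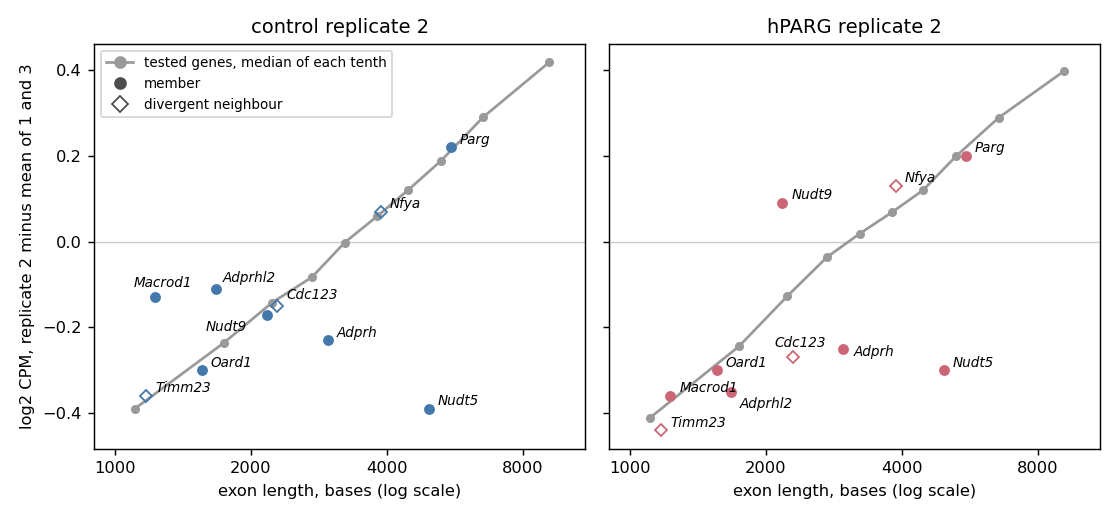
Log2 CPM of replicate 2 minus the mean of replicates 1 and 3 against exon length (log axis) for the tested members (filled), their divergent neighbours (open) and, in grey, the medians of all tested genes by deciles of exon length, in control (left) and hPARG (right). Parg lies close to the grey line in both groups, and Nudt5 (at -0.39 and -0.30) and Adprh (at -0.23 and -0.25) lie below it in both.

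Parp1, the main writer of poly(ADP-ribose), was set against Parg within each culture. The ratio of Parp1 to Parg in RPKM was 4.64, 4.36 and 3.88 in control replicates 1 to 3 and 3.96, 4.19 and 3.9 in hPARG replicates 1 to 3. The hPARG cultures lay within the range of the controls. On the log2 scale the means were 2.10 ± 0.131 (SD, n = 3) in the control and 2 ± 0.0538 (SD, n = 3) in the hPARG group, a difference of -0.09. The two-sided exact permutation test gave p = 0.40, with 0.1 the smallest p that 3 against 3 allow. This ratio counts mouse Parg only and leaves out the human cDNA. Parp1 itself had 164, 180 and 137 CPM in the control and 144, 176 and 143 CPM in the hPARG cultures, a log2 fold change of -0.06 (standard error 0.137, adjusted p = 0.999, edgeR).

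The other genes of ADP-ribose metabolism were taken as 3 lists. Among 13 genes for further macrodomain proteins and for enzymes that cleave ADP-ribose or NAD, 8 were tested and 0 were called, where 0.0869% of all tested genes were. The median log2 fold change was -0.09 and all 8 values were below 0, beside 5646 of the 11509 tested genes, and this count was not tested. The largest in size were Parp14, a macrodomain PARP, at -0.45 (standard error 0.287) and Parp9, another macrodomain PARP, at -0.16 (standard error 0.130), both with an adjusted p of 0.999 by edgeR. With the replicate number as a block, Parp14 was called (log2 fold change -0.44, standard error 0.084, adjusted p = 0.0157 by edgeR), where 2.87% of the tested genes were. Parp14 had 16.6, 31.2 and 18.1 CPM in the control and 12.8, 21.5 and 13.8 CPM in the hPARG cultures, so that both replicates 2 were the highest of their groups and the groups overlapped. The inactive ARH family gene Adprhl1 had 0 counts in all 6 cultures.
Of 20 other nudix genes, 18 were tested, 0 were called, 7 had log2 fold changes above 0 and 11 below, and the median was -0.07. The largest in size were Nudt17 at 0.48 (standard error 0.327), which had between 12 and 19 counts per culture, and Nudt18 at 0.37 (standard error 0.213).
Of 21 genes listed as writers, which include Hpf1 and Zc3hav1, 17 were tested and 0 were called, where 0.0869% of all tested genes were. The median log2 fold change was -0.04, with 6 above 0 and 11 below. Parp12, a mono-ADP-ribosyltransferase, had 21.2, 20.3 and 20.5 CPM in the control and 18.7, 15.8 and 14.3 CPM in the hPARG cultures. Its groups did not overlap, as for 6% of all tested genes in this direction, and its log2 fold change of -0.35 (standard error 0.124) had an unadjusted p of 0.0238 and an adjusted p of 0.999 by edgeR. The ecto-transferase genes Art1, Art3, Art4 and Art5 had 0 counts in all 6 cultures. Some genes stand in 2 of these lists, namely Parp9 and Parp14.

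**Figure D5:**
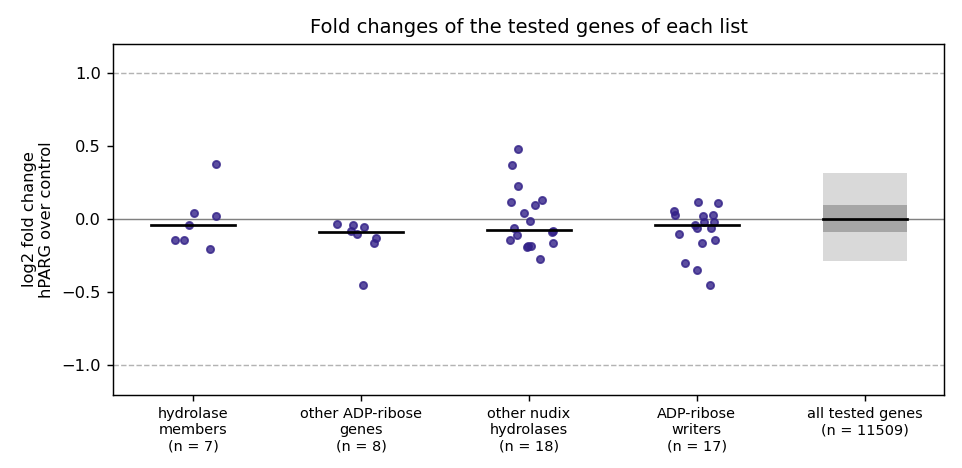
Log2 fold change of hPARG over control for the tested genes of the hydrolase members and of the 3 other lists (points, with the median as a bar), beside all tested genes, for which the dark box spans the middle 50% (-0.09 to 0.10) and the light box the middle 90% (-0.28 to 0.32). Dashed lines mark a 2-fold difference, and no listed gene reaches them.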

How the data were processed

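Poly(A) RNA of 6 cultures was sequenced as paired reads. Adapter trimming and mapping, by the authors, used CLC Genomics Workbench 12.0 and GRCm38 with Ensembl release 96 (a length fraction and a similarity fraction of 0.8, at most 10 hits). The deposited counts per gene are whole numbers without normalization. The deposited RPKM values divide them by the exon length of coding transcripts and a library total between 1.078 and 1.0983 times the count total. Another 12 columns of per-sample values (TPM and CPM) and the authors' own comparison (fold changes, p-values) were not used. All 41819 gene identifiers were found in GENCODE M21.

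Genes were filtered with filterByExpr (minimum count 10), TMM-normalized and tested by the quasi-likelihood method (glmQLFTest after glmQLFit) of edgeR 4.0.16 under R 4.3.3, with limma 3.58.1, with Benjamini-Hochberg adjustment over 11509 genes and no block. Log2 CPM used a prior count of 2. A count of 3 was taken as the floor, for counting error only, since reads carry no molecular identifiers. Standard errors are the absolute log2 fold change over the square root of F. The fit was tested on simulated data, drawn independently for each culture and so without the shared deviation of the replicates 2. Alternatives were DESeq2 1.42.0, RLE factors, library totals only, no filter, the replicate block, a spline correction (4 degrees of freedom) for exon length and GC content, and each culture left out. The fit without both replicates 2, and counts at an unadjusted p with the replicate block, were chosen after seeing the data. The members and lists were chosen with earlier results of these data known. All 10 members are named. From each other list, genes were named that passed the adjusted p with or without the replicate block, and the 2 largest absolute log2 fold changes, with Parp1 always, and for likeness the 3 tested genes with the highest correlation with Parg. Genes at 0 counts and the divergent neighbours were named after their values were seen.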

Additional observations from a re-analysis of the deposited data

How the results depend on the processing

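The number of members called stayed at 0 in all 13 other settings and without both replicates 2. The sign of the log2 fold change was the same throughout for Adprhl2, Macrod1, Oard1 and Nudt9, and it turned for Parg in 1, Nudt5 in 2 and Adprh in 3 of these 13, with none of these values past the threshold. With each culture left out in turn, Macrod1 ranged from 0.04 to 0.54, Parg from -0.03 to 0.12 and Nudt9 from -0.25 to -0.13. Deviations of same-numbered cultures correlated across genes with r = 0.0963, 0.61 and 0.168. Of the 6 cultures, 2 correlated best with their own number, namely both replicates 2. The labels name no shared origin and the methods of the study name no block, so the numbers were not taken to pair the cultures. The main fit thus keeps the shared deviation of the replicates 2 in its spread between cultures. The median standard error of the tested members was 0.138 in that fit and 0.0792 with the replicate block, where the interval of Parg ran from -0.09 to 0.17. With the replicate block in the model, 330 of all tested genes were called in place of 10, and 304 with the block and the length and GC correction together. With the block, Nudt9 had an unadjusted p of 0.0273 and an adjusted p of 0.216 (edgeR), 17.9% of the tested genes being under an unadjusted 0.05, and 1 gene was called in the list of other ADP-ribose genes and 1 among the writers. This was Parp14 in both lists (adjusted p = 0.0157, edgeR), and the block with the correction also gave 1 in each. The block changed no other call among the members and lists. The number of all genes called was 16 without a filter, 52 with DESeq2, 30 with the length and GC correction, 40 without both replicates 2 and between 3 and 13 with each culture left out, with 3 without hPARG replicate 1 and 5 without hPARG replicate 3. The cause was not tested. Mean levels were higher for all members in TMM-normalized CPM per kilobase, as for Adprh (29.4 RPKM and 32.1) and Parg (8.63 RPKM and 9.39). The order of members was the same. Both measures divide by the same exon lengths, so this order does not check those lengths. Depth limits Macrod2, Nudt16 and Enpp1, which entered the test only without the filter, where none was called.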
